A study of Mus musculus with 6 samples.

Results

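Lipoprotein lipase and the genes that mature it, carry it, inhibit it and take up the lipid it releases were followed in primary cultured white fat cells that received miR-182-5p or a control. The members were chosen by name, as the 10 genes Lpl, Lmf1, Gpihbp1, Angptl1, Angptl2, Angptl4, Vldlr, Cd36, Lrp1 and Lrp8, all of which are listed among the 22609 gene symbols counted in every sample. The cells came from the stromal vascular fraction of inguinal fat (iWAT) of male C57BL6 mice, aged 3 weeks per the labels, and were differentiated in culture. There were 3 samples labelled "control vector" and 3 labelled "miR182 overexpression", named control and mimic here, and no other genotype or treatment separated them. The labels name electroporation, whereas the study's methods name a synthetic miRNA mimic delivered with a lipid reagent and older mice. Neither says whether the 3 samples of a group came from separate mice, so p-values measure the spread between these samples, which may be technical.

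Lipoprotein lipase (LPL) is made by adipocytes, folded in the endoplasmic reticulum with the help of LMF1, secreted, and carried by GPIHBP1 across the capillary endothelium, where it frees fatty acids from the triglycerides of circulating lipoproteins. ANGPTL4 is an inhibitor of LPL that adipocytes secrete during fasting, and CD36 takes up the freed fatty acids. VLDLR, LRP1 and LRP8 belong to the LDL receptor family, which binds lipoproteins and their remnants, and ANGPTL1 and ANGPTL2 are relatives of ANGPTL4 that are not known as LPL inhibitors.

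A miRNA lowers mRNAs mainly through matches to its seed, bases 2 to 8, in the 3′-UTR. The mature sequence of mouse miR-182-5p is shown first with its seed in capitals (RefSeq, GRCm38.p6, chr6:30165962-30165986, minus strand). The study's methods print another mature sequence under this name, with another seed, which was not searched here. The target site that the same methods give for their reporter assay, in the 5′-UTR of Nr1d1, is complementary to part of the RefSeq sequence. It covers only part of the seed, and no 5′-UTR was searched here. For the RefSeq sequence, the complement of the seed, TTGCCAA, was searched on the sense strand of the longest 3′-UTR of each gene in GENCODE M21. Among the 10 members, whose 3′-UTRs are 476 to 5091 bases long, only Vldlr holds it, 1 time. Of all tested genes with an annotated 3′-UTR, 13.9% hold it. A match to bases 2 to 7 followed by an A was searched as well, leaving out those that lie within a match to bases 2 to 8. Gpihbp1 is the only member with such a match, which 11.2% of the tested genes hold. The Vldlr site is followed by an A and so matches 8 bases. It is shown in capitals with the matches in 2 further genes of the LDL receptor family, Sorl1 and Lrp6, because these lines place the seed match in the lipoprotein receptors. Each line is 30 bases on the sense strand of GRCm38. A match is a description of these letters, not a shown binding site.
miR-182-5p: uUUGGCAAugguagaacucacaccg
Vldlr (chr19:27249603-27249632, plus strand): actaagatgaaaTTGCCAAaaaaaaaaaaa
Sorl1 (chr9:41966567-41966596, minus strand): cagtgtgggttcTTGCCAAgcatcagaacc
Lrp6 (chr6:134450072-134450101, minus strand): ttggagactgttTTGCCAAgagccatgatt

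With the mimic, Lpl fell to 72.1% of its control level while the gene of its inhibitor, Angptl4, rose to 126%. Angptl2, Vldlr, Lrp1 and Cd36 fell by smaller amounts, Lrp8 rose, Lmf1 and Angptl1 did not pass the test, and Gpihbp1 was at or near 0 reads. Counts were compared by the quasi-likelihood test of edgeR and p-values adjusted by Benjamini-Hochberg over all 13117 genes with enough reads, and Gpihbp1 was the member left out by that filter. Of the 9 members tested, 7 passed an adjusted p under 0.05, 2 higher and 5 lower, and 1, Lrp8, also changed by at least 1.5-fold, the pair of cutoffs the study states. Among all genes tested 46.7% passed the adjusted p (23.2% higher and 23.5% lower) and 7.45% passed both cutoffs (1.97% higher and 5.48% lower). The median log2 fold change of the 9 members was -0.13, against -0.004 over all genes tested, and the median size regardless of sign was 0.21, against 0.16. The control and mimic samples did not overlap in 7 of the 9, where 54.8% of all genes tested did not overlap.

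**Figure D1:**
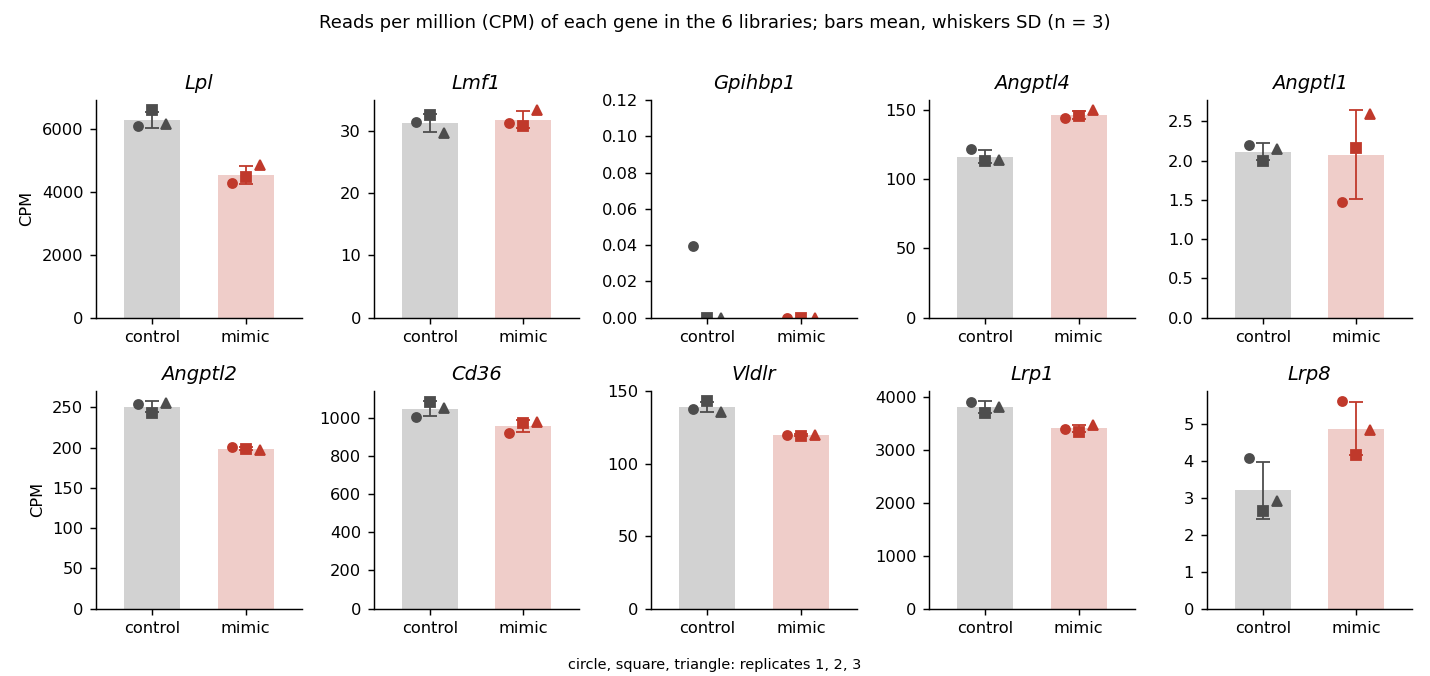
Reads per 1000000 of the TMM-scaled library (CPM, vertical axis of each panel, starting at 0) of the 10 genes in 3 control (grey) and 3 mimic (red) libraries. Points show replicates 1 to 3, bars means and whiskers the SD. Gpihbp1 is drawn without bar or whisker. The 3 mimic points lie below all control points for Lpl, Angptl2, Cd36, Vldlr and Lrp1, and above them for Angptl4 and Lrp8.

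Reads counted on genes ranged from 25869810 to 28796712 per library, and levels are given as CPM, reads per 1000000 of the TMM-scaled library. The gene Mir182 had 0 reads in every library, which checks no label, since poly(A) libraries do not hold the mature miRNA. Mimic replicate 1 stood somewhat apart: the chi-square of counts per degree of freedom, near 1 for sampling noise, was 5.01 and 7.19 between it and the other mimic libraries and 2.13 to 3.1 for the other pairs of replicates. All 10 adipocyte markers were expressed, with a summed level of 7844 to 8176 CPM in control and 5776 to 6476 CPM in mimic libraries. Of the 10 markers 6 passed the adjusted p as lower and 2 as higher, beside 23.5% and 23.2% of all genes tested. Plin4 (log2 fold change 0.50) was among those higher and Fabp4 (-0.68) among those lower. The 10 progenitor and fibroblast markers, among which Pdgfrb and Thy1 were highest, summed to 2923 to 2928 CPM and to 2380.0 to 2518 CPM (9 tested, 7 lower and 1 higher, Thy1, with Pdgfrb at 0.06 and adjusted p = 0.117). Of these markers 5 passed both cutoffs as lower, and of the adipocyte markers 4, where 5.48% of all genes tested did. The median log2 fold change was -0.64 over the 9 tested here and -0.41 over the adipocyte markers. In bulk RNA a smaller share of fat cells and less RNA per fat cell cannot be told apart. The part of the adipocyte markers' fall in the members' changes was not tested.

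Lpl (chromosome 8 of GRCm38, 68880491 to 68907448) encodes the lipase itself. It took 0.434% to 0.649% of all reads on genes and ranked at 9 of all genes by mean CPM. Its level was 6091, 6583 and 6153 CPM in control replicates 1 to 3 and 4283, 4454 and 4845 CPM in mimic replicates 1 to 3. Every mimic sample lay below every control sample. The means were 6275 ± 268 and 4527 ± 288 CPM (SD, n = 3 each), which gave a log2 fold change of -0.47 (standard error 0.047, 95% interval -0.57 to -0.37, edgeR adjusted p = 1.7e-06). A 1.5-fold change, 0.585 in log2 units, lies outside this interval.

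Angptl4 (chromosome 17, 33773750 to 33781830) encodes the secreted inhibitor that unfolds LPL. It was at 122, 113 and 114 CPM in control replicates 1 to 3 and at 144, 146 and 149.8 CPM in mimic replicates 1 to 3. The groups did not overlap, and the change ran opposite to that of the enzyme. The log2 fold change was 0.33 (standard error 0.034, 95% interval 0.26 to 0.40, edgeR adjusted p = 2.86e-06). Set against Lpl within the same library, which needs no scaling between libraries, Angptl4 had 2.01, 1.72 and 1.85 reads per 100 Lpl reads in control and 3.37, 3.28 and 3.09 in mimic replicates 1 to 3. All 3 mimic ratios exceeded all control ratios. The mean log2 ratio rose from -5.75 ± 0.11 to -4.95 ± 0.063 (SD, n = 3 each), a difference of 0.80 or 1.75-fold (p = 0.1 in a two-sided exact permutation test, the smallest that 3 samples against 3 can give).

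**Figure D2:**
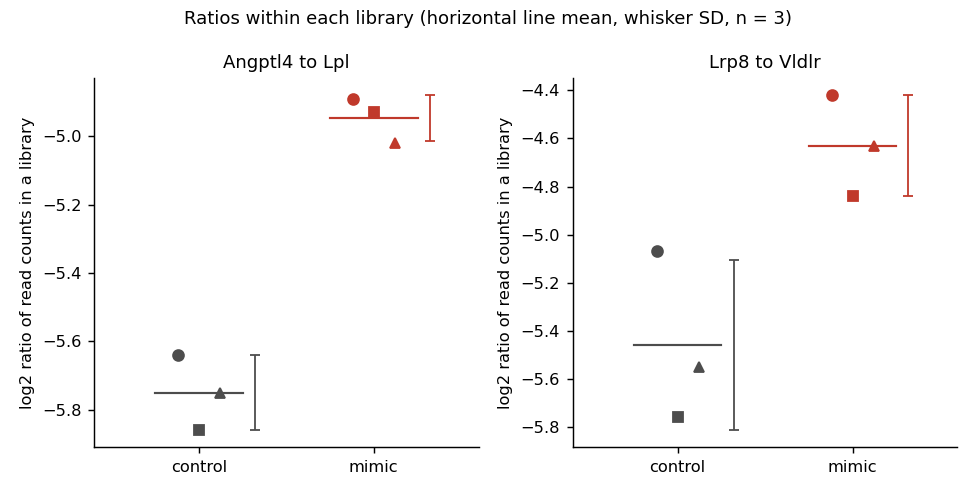
Log2 ratios of read counts within each library (vertical axis, not starting at 0) of Angptl4 to Lpl (left) and Lrp8 to Vldlr (right) in control (grey) and mimic (red) libraries, with points for replicates 1 to 3, a line for the mean and a whisker for the SD. Mean ratios rose by 0.80 and by 0.83 on the log2 scale, and the groups do not overlap in either panel.

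Lmf1, which encodes the endoplasmic reticulum factor that LPL needs to fold, was measured at 31.5, 32.5 and 29.7 CPM in control and 31.3, 30.8 and 33.3 CPM in mimic replicates 1 to 3. The groups overlapped. Its log2 fold change was 0.02 (95% interval -0.09 to 0.14, edgeR adjusted p = 0.737), an interval that leaves out changes as large as that of Lpl. Gpihbp1, the gene of the endothelial carrier, had 1 read in control replicate 1 and 0 reads in the other 5 libraries. A count of 0 allows a level of up to 0.103 to 0.115 CPM in these 5 libraries (3 reads, counting error only), so no fold was computed. Of the endothelial markers, Cldn5 had 0 reads in every library, Pecam1 3 to 11 and Emcn 3 to 9, whereas Flt1 had 206 to 320, Egfl7 132 to 180 and Tek 62 to 176. The 10 endothelial markers summed to 23.9 to 25 CPM in control and 21.4 to 21.9 CPM in mimic libraries. Of the 6 tested, 1 rose (Flt1, 0.36) and 2 fell (Egfl7, -0.46, and Tek, -1.31). Together these are 50% of those tested, beside 46.7% of all genes tested that passed the adjusted p.

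Angptl2 (chromosome 2, 33216069 to 33247717), whose protein is secreted by fat tissue and tied to inflammation in obesity, was at 254, 243 and 255 CPM in control and 200.4, 198 and 197 CPM in mimic replicates 1 to 3. The mimic samples were close to each other and all below the control samples. The log2 fold change was -0.34 (standard error 0.028, 95% interval -0.40 to -0.28, edgeR adjusted p = 3.59e-07), the smallest adjusted p of the 9 members tested. Angptl1, whose protein limits vessel growth, had 52 to 56 reads per control library and 43, 57 and 73 reads in mimic replicates 1 to 3. Its groups overlapped and the interval of its log2 fold change was wide (-0.03, 95% interval -0.45 to 0.39, edgeR adjusted p = 0.915). The antisense gene Gm37802 overlaps 465 of its 2841 exon bases, so its count depends on a strand setting that is not given in the sources used here.

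Cd36 (chromosome 5, 17781690 to 17888801), the gene of the fatty acid transporter, was expressed at 1006, 1084 and 1051 CPM in control replicates 1 to 3. It was at 919, 971 and 978 CPM in mimic replicates 1 to 3. All mimic values lay below the control values, by a small margin between control replicate 1 and mimic replicate 3. The log2 fold change was -0.13 (standard error 0.035, 95% interval -0.21 to -0.06, edgeR adjusted p = 0.007), the smallest in size of the 7 members past the adjusted p.

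Among the receptors, Vldlr (chromosome 19, 27216484 to 27254231), which takes up triglyceride-rich lipoproteins and is the member with the seed match shown above, was at 138, 143 and 136 CPM in control and 120.0, 119 and 120.0 CPM in mimic replicates 1 to 3. The mimic samples were nearly equal and all below the control samples. Its log2 fold change was -0.21 (standard error 0.029, 95% interval -0.28 to -0.15, edgeR adjusted p = 4.04e-05), so that in size it lay between the members without a match that fell more (Lpl and Angptl2) and those that fell less (Lrp1 and Cd36). Lrp1 (chromosome 10, 127538161 to 127621148), a large receptor for lipoprotein remnants and for many other ligands, had 3911, 3690.0 and 3817 CPM in control and 3391, 3345 and 3481 CPM in mimic replicates 1 to 3. Again no mimic sample reached a control sample. The log2 fold change was -0.16 (standard error 0.034, 95% interval -0.23 to -0.09, edgeR adjusted p = 0.00148).

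Lrp8 (chromosome 4, 107802261 to 107876840), which encodes the receptor ApoER2 for apolipoprotein E and reelin, was the member with the largest fold change and one of the least expressed. It had 104, 69 and 76 reads in control and 164, 110 and 137 reads in mimic replicates 1 to 3, or 4.09, 2.64 and 2.91 CPM against 5.62, 4.18 and 4.85 CPM. The highest control sample lay just under the lowest mimic sample. The log2 fold change was 0.61 (standard error 0.16, 95% interval 0.26 to 0.96, edgeR adjusted p = 0.00691), so the estimate exceeds 1.5-fold by a margin well inside its error. Its log2 fold change was under 1.5-fold (0.49 at the lowest) without control replicate 2, control replicate 3 or mimic replicate 1. Lrp8 is among the genes the study picked from these same samples as higher with the mimic, so its direction here is not independent of that choice. Within each library Lrp8 had 2.97, 1.85 and 2.14 reads per 100 Vldlr reads in control and 4.68, 3.5 and 4.04 in mimic replicates 1 to 3. The mean log2 ratio rose from -5.46 ± 0.35 to -4.63 ± 0.21 (SD, n = 3 each), by 0.83 (p = 0.1 in a two-sided exact permutation test, the smallest possible).

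**Figure D3:**
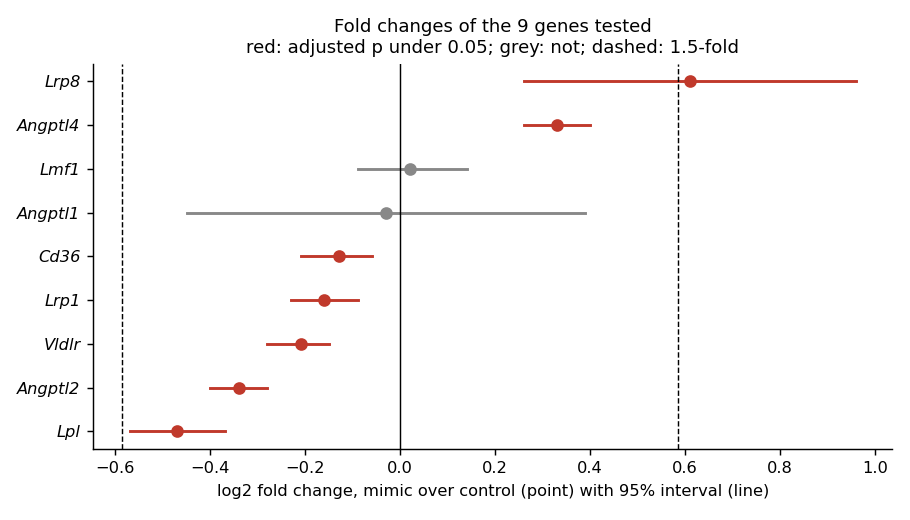
Log2 fold change of mimic over control (horizontal axis; points) with its 95% interval (lines) for the 9 genes tested with edgeR, red where the adjusted p was under 0.05 and grey where not; dashed lines mark 1.5-fold. Lpl (-0.47) and Lrp8 (0.61) lie at the ends, and the widest intervals belong to Lrp8 and Angptl1, the genes with the fewest reads.

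Levels of different genes were compared per kilobase of the principal transcript (CPM per kb), so they depend on that length. Over all transcripts Lmf1 has 13589 exon bases, against 1858 in its principal transcript, and Vldlr has 10068, against 7971. With fewer CPM and more exon bases, Lmf1 would lie below Vldlr per exon base, so the order of this pair depends on the length used. In control samples Lpl stood first at 1525 ± 65.1, followed by Cd36 at 308 ± 11.5, Lrp1 at 256 ± 7.46, Angptl2 at 75.1 ± 1.89 and Angptl4 at 35.2 ± 1.56 CPM per kb (SD, n = 3). Vldlr at 17.4 ± 0.45 and Lmf1 at 16.8 ± 0.759 CPM per kb overlapped in their range over samples, as did Angptl1 at 0.797 ± 0.0409 and Lrp8 at 0.705 ± 0.169. In mimic samples Lpl remained highest at 1100.1 ± 70 CPM per kb, followed by Cd36 at 281 ± 9.62, Lrp1 at 229 ± 4.64, Angptl2 at 59.5 ± 0.487 and Angptl4 at 44.3 ± 0.869. Lmf1 at 17.1 ± 0.698 lay above Vldlr at 15 ± 0.0499 in each mimic sample, whereas the ranges of Lrp8 at 1.07 ± 0.158 and Angptl1 at 0.782 ± 0.212 CPM per kb overlapped.

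The genes whose log2 CPM, centred on its mean over the 6 samples, differed least from that of Lpl were Arl4a (root mean square difference 0.0279), Sh3bp4 (0.0281) and Dusp22 (0.0288), with log2 fold changes of -0.50, -0.45 and -0.51. For Lrp8 they were Fosl1 (0.0961), Shank2 (0.104) and Tmem44 (0.107), at 0.70, 0.62 and 0.57. Each was picked out of 13116 genes as the nearest, which is a description.

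Around the members, 93 further genes of lipase handling, lipoprotein uptake and fatty acid uptake were listed, of which 81 had enough reads. Of these, 62 (76.5%) passed the adjusted p, 23 higher and 39 lower, and 12 (14.8%) passed both cutoffs, 1 higher and 11 lower, beside 46.7% and 7.45% of all genes tested. Their median log2 fold change was -0.17. The lists were drawn up by function, but with earlier results of these data known, so these shares are a description. The lists partly share genes.

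Of 6 tested genes of secreted activators and inhibitors of LPL, 4 passed the adjusted p and all 4 were lower. They were Apoe, the remnant ligand of LRP1, VLDLR and LRP8 (959 ± 11.1 to 693 ± 12 CPM, SD, n = 3 each, log2 fold change -0.47, standard error 0.028), Apoc1 (-0.46), Apoc4 (-0.95, standard error 0.26, at 12 to 42 reads per library) and Angptl8, listed in the files as Gm6484. Angptl8, an insulin-responsive relative of ANGPTL4 that joins in the control of LPL, fell from 49 ± 2.84 to 33.7 ± 4.06 CPM (SD, n = 3 each) on a log2 fold change of -0.54 (standard error 0.073, edgeR adjusted p = 3.22e-05). It thus moved opposite to Angptl4. Apoc2, the gene of the cofactor LPL requires, had only 9 to 28 reads per library and did not pass (log2 fold change -0.67, edgeR adjusted p = 0.0864), and Apoa5 had 0 reads. Angptl7 had at most 6 reads, and Angptl6 was higher (0.22, adjusted p = 0.0441) but passed in 2 of 13 alternative fits. The gene Gm44805 on the same strand covers 646 of the 813 exon bases of Apoc2 and 119 of the 2537 of Apoc4, so reads there could be left uncounted or split, and both counts are uncertain.

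Of 7 genes of LPL folding, sorting and secretion, 2 rose and 4 fell. Sel1l, which stabilises the complex of LMF1 and LPL, rose by 0.14 on the log2 scale, and its partner Syvn1 by 0.21. Sorl1, a sorting receptor that routes LPL to endosomes and holds a seed match shown above, passed both cutoffs (65.6 ± 4.58 to 39.2 ± 8.25 CPM, SD, n = 3 each, log2 fold change -0.75, standard error 0.11). An antisense gene overlaps 185 of its exon bases. Sdc1, the heparan sulfate proteoglycan syndecan-1, had a log2 fold change of -0.54 (standard error 0.039). Of 17 heparan sulfate proteoglycans and their synthesis enzymes, 7 rose, 6 fell, 4 did not pass and 0 passed both cutoffs, where Ext2, an enzyme that extends the heparan sulfate chain, had the smallest p (-0.52, standard error 0.029). Lipg, the gene of endothelial lipase, was low at 21 to 37 reads per library and passed both cutoffs (-0.63, standard error 0.21, edgeR adjusted p = 0.0213), a call it kept in 9 of 13 alternative fits. The hepatic lipase gene Lipc had at most 2 reads.

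Of the 5 proprotein convertases, enzymes that cleave LPL and angiopoietin-like proteins, 3 rose, 2 fell and 0 passed both cutoffs. Pcsk5 (log2 fold change -0.34) and Pcsk6 (-0.29) had the smallest p values. Of 5 tested genes listed as receptors of angiopoietins or angiopoietin-like proteins, the integrin genes Itga5 (0.42), Itgb1 (0.38) and Itgav (0.28) rose. Itgb3, the partner of integrin αv, fell from 17.6 ± 0.903 to 6.71 ± 0.557 CPM (SD, n = 3 each, log2 fold change -1.39, standard error 0.079). Tek, the angiopoietin receptor, fell by 1.31 (standard error 0.13).

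In the rest of the LDL receptor family with its ligands and adaptors, 14 genes were tested, of which 4 rose and 7 fell. Lrp4 (9.63 ± 1.23 to 5.56 ± 0.526 CPM, SD, n = 3 each, log2 fold change -0.79) and Sorl1 passed both cutoffs as lower. Mylip, the ubiquitin ligase that marks VLDLR and LRP8 for degradation, was the 1 listed gene that passed them as higher, from 31.7 ± 0.7 to 48.9 ± 1.91 CPM (SD, n = 3 each, log2 fold change 0.62, standard error 0.047, edgeR adjusted p = 1.24e-07). Lrp6, a Wnt co-receptor with 1 match, had 0.09 and passed as higher, which it did in 7 of 13 alternative fits. Of the 81 listed genes that were tested, all with an annotated 3′-UTR, 7 (8.64%) held the match to bases 2 to 8. Of these, 4 fell, Cebpa and Sorl1 among them, 1 rose (Lrp6) and 2 did not pass (Lrp2 and Ptrf). Reln, the gene of the other LRP8 ligand, had 1 to 7 reads and its adaptor Dab1 had 0.

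Of the 17 tested genes of fatty acid uptake and trapping, 2 rose and 10 fell. The 4 that passed both cutoffs were all lower. Slc27a1 (log2 fold change -0.73, standard error 0.042) and Slc27a6 (-1.53, standard error 0.16) encode fatty acid transport proteins, and Slc27a6 fell from 7.16 ± 0.476 to 2.47 ± 0.793 CPM (SD, n = 3 each). Acsl1, the acyl-CoA synthetase that traps fatty acids inside fat cells, fell from 1059 ± 42.5 to 636 ± 52.2 CPM, and Fabp4, the adipocyte fatty acid carrier, from 3316 ± 132 to 2067 ± 118 CPM (SD, n = 3 each). Acsl1 shares 1039 of 10483 exon bases with an antisense gene. The change of Cd36 (-0.13) was smaller in size than any of these 4. Of 11 transcription factors known to act on Lpl, Angptl4 or Cd36, 1 rose (Hif1a, 0.30) and 6 fell. Nr1h3, which encodes the oxysterol receptor LXRα, passed both cutoffs (59.8 ± 2.83 to 27.2 ± 2.42 CPM, SD, n = 3 each, log2 fold change -1.13, standard error 0.06), Cebpa had -0.56 and Pparg -0.31. Ppara (0.15) and Ppard (0.08) did not pass.

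**Figure D4:**
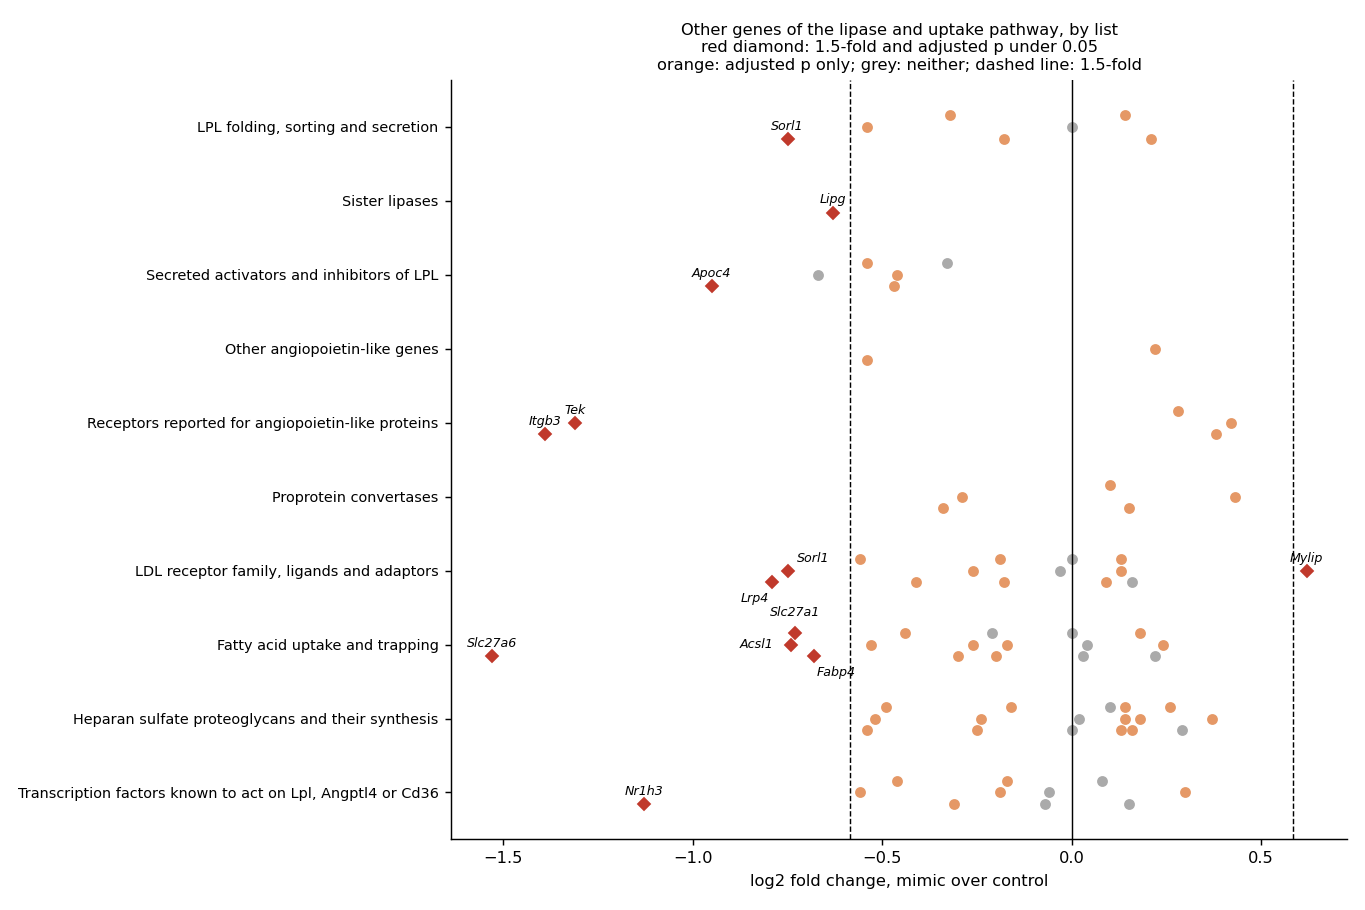
Log2 fold change of mimic over control (horizontal axis) for the other pathway genes tested, in rows by list (a gene in several lists is drawn in each; height within a row only separates points), with red diamonds for genes past both cutoffs, orange for the adjusted p alone and grey for neither. The diamonds lie on the lower side apart from Mylip (0.62), and Slc27a6 (-1.53) is farthest from 0.

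Of markers of other cells that can make LPL or CD36, the 10 macrophage markers summed to 14.8 to 15.9 CPM in control and 12.7 to 16.3 CPM in mimic libraries, with Csf1r and Cd68 the highest and Itgam at 0 to 2 reads. Of the 4 tested, 1 passed the adjusted p as lower, where 23.5% of all genes tested did. Of the 8 skeletal muscle markers Ckm, Myh4 and Myod1 had 0 reads, whereas Acta1 rose (log2 fold change 0.73) and Actn3 fell (-0.73). The list summed to 22.9 to 23.7 CPM in control and 31.3 to 36 CPM in mimic libraries.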

How the data were processed

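RNA of 6 cultures (3 control, 3 mimic) was sequenced as stranded poly(A) libraries. Raw counts of reads for each gene symbol were deposited as 1 list per sample. The submitters' processing notes name bcl2fastq, TopHat2, HTSeq and the build mm9. Annotation and strand setting are not given in the sources used here. In each list 5 tally lines were left out (reads outside genes 12.73% to 13.02% of the unique ones, ambiguous 0.652% to 0.667%). The tally of alignments that were not unique, 19363264 to 21673840 per library, was kept apart from the genes, which lowers counts of genes with near copies.

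Counts were tested in edgeR 4.0.16 (R 4.3.3, TMM, filterByExpr with a minimum count of 10, quasi-likelihood, two-sided, groups only), with Benjamini-Hochberg adjustment over 13117 genes. Standard errors are the log2 fold change over the root of F. The test was tried on simulated data. Alternatives were DESeq2 1.42.0, limma-voom 3.58.1, other scalings and filters, glmTreat, the replicate block and leaving out each library. Ratios used exact permutation tests (scipy 1.17.1). Log2 CPM for likeness between genes had 0.1 added.

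Positions came from GENCODE M21 (GRCm38, matched by symbol), not the submitters' build, for 22207 of 22609 genes, 1923 through an older symbol, and all 10 members. Length is that of the longest APPRIS principal transcript. Genes named were the 10 members, those of each pathway list past both cutoffs or else with the smallest p until 2 were named, the 2 most expressed of each marker list, and the 3 nearest to Lpl and to Lrp8. Apoc1, Apoc2, Sel1l, Syvn1, the integrins, Hif1a, Pparg, Ppara, Ppard, Lrp2, Lrp6, Ptrf, Tek among the endothelial markers and genes at or near 0 reads were named after their values were seen. Members and lists were chosen with earlier results of these data known.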

Additional observations from a re-analysis of the deposited data

How the results depend on the processing

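The 7 members past the adjusted p kept their direction and their side of the threshold in all 13 alternative fits (other tools, scalings and filters, the replicate block and each library left out), and the count stayed at 7. The number of members past both cutoffs, 1, went to 0 with edgeR's glmTreat against a 1.5-fold change, and ranged from 0 to 1 with each library left out, as Lrp8 crossed the fold line. Lmf1 and Angptl1, which passed in no fit, changed sign: Lmf1 to -0.011 without control replicate 3 and -0.006 without mimic replicate 3 (range -0.011 to 0.053 with each library left out), and Angptl1 to 0.17 without mimic replicate 1 (range -0.22 to 0.17). With libraries left out, 11 to 13 of the listed pathway genes passed both cutoffs and 55 to 59 the adjusted p, and the differences in log2 ratio ranged from 0.75 to 0.86 (Angptl4 to Lpl) and 0.68 to 1.02 (Lrp8 to Vldlr). The replicate numbers share no stated origin, same-numbered samples correlated at -0.18 to -0.0424 in their deviations from the group means, and no sample correlated best with its own number. With the replicate block 1 and 7 members and 12 and 59 pathway genes passed both cutoffs and the adjusted p, against 12 and 62 pathway genes without it, and the mean differences in log2 ratio were 0.80 and 0.83. Depth limits Lrp8 and Angptl1, with 43 to 164 reads, and leaves Gpihbp1 without a test.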
